A study of Mus musculus with 6 samples.

Results

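The 10 genes described here encode cargo of the platelet α granule: Vwf, Thbs1, Sparc, Mmrn1, Selp, F5, F13a1, Srgn, Clu and Tgfb1. They were taken from the deposited expression table by symbol, with no threshold on their values. All 10 were among the 14975 listed genes. Platelet RNA was sequenced from 3 control and 3 pre-AML libraries, numbered within each group as in the labels. Values are given below in the order of these numbers. Both groups, given as C57BL/6 background in the labels, had been irradiated and had received a transplant. Controls, labelled WT, received normal bone marrow cells. Pre-AML mice, labelled AML, received hematopoietic stem and progenitor cells transformed with an MLL-AF9 retrovirus that also carries GFP. Platelets were taken 1 week after transplantation, according to the methods of the study, which used female mice 8 to 12 weeks old. Recipients were CD45.1 or C57BL/6 mice, and secondary recipients of transformed cells were irradiated sub-lethally. Whether these libraries came from primary or secondary recipients is not given in the sources used here. The labels do not give the week, and the series text mentions 2 replicates per group and pools of 3 to 4 mice, whereas the methods speak of 3 independent mice. The p-values therefore measure the spread between these libraries. Leukocytes and erythroid cells had been depleted with CD45 and Ter119 antibodies.

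α granules are the most abundant secretory granules of platelets. Megakaryocytes fill them with adhesive, clotting and growth factor proteins that are released at a wound. Most of these proteins are made by the megakaryocyte itself, so the messages for them pass into the platelet, while others such as fibrinogen are taken up from plasma. The adhesive proteins hold platelets to the vessel wall and to each other, and the clotting proteins build and crosslink fibrin.

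The 3 stretches of sequence printed here lie before starts listed in RefSeq, and each holds a motif that was searched. Srgn and F13a1 are 2 of the 3 members whose groups did not overlap. The Mmrn1 start was the single one with both motifs within its 250 bases. This RefSeq start lies downstream of the GENCODE start of the gene at 60924976, and its use in platelets was not tested. The start of F5, the other member without overlap, and the other start of Srgn held neither motif and are not printed. RefSeq promoters on GRCm38.p6 were matched by symbol for 7 of the 10 genes, with 9 starts in all, and 250 bases before each start were read. Capitals mark GATAA, a core of sites bound by GATA factors, and GGAAGT, a core of sites bound by ETS factors, on either strand. These motifs do not overlap. The stretches are chr10:62527446-62527695 on the minus strand for Srgn, chr13:37050245-37050494 on the minus strand for F13a1 and chr6:60944067-60944316 on the plus strand for Mmrn1, which lies within the span of that gene in GENCODE.
Srgn: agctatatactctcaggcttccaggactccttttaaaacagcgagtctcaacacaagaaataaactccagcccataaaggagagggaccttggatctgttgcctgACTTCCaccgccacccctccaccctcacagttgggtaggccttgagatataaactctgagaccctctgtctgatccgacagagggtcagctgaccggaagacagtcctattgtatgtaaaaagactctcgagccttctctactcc
F13a1: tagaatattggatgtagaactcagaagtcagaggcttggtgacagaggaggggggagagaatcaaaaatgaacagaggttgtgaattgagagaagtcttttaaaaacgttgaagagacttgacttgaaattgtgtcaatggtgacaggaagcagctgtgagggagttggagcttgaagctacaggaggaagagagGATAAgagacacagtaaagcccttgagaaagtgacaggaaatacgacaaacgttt
Mmrn1: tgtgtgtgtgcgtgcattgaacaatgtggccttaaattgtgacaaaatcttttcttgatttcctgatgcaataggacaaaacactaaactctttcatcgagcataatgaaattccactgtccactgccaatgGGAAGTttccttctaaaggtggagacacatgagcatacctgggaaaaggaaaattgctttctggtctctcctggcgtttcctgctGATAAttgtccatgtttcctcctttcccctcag
GATAA was found before 2 of the 9 starts (F13a1 and Mmrn1) and before 22.6% of all 32851 starts in the table. GGAAGT was found before 3 of the 9 (Srgn, Mmrn1 and the other start of F13a1) and before 19.7% of all starts. A match of these letters is a description and shows no binding.

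The table holds FPKM, that is reads scaled to the length of a gene and to the size of a library. Whole reads could be recovered from the steps of these values, and the libraries held between 11936006 and 17779027 reads on listed genes, with pre-AML 3 the deepest. Its FPKM values were divided by a library size 1.31 times its recovered reads, while this factor was between 0.983 and 1.01 in the others, so the same share of reads gives a lower FPKM in pre-AML 3. Pre-AML 3 also stood apart on the first principal component, at 41.9 against -12.7 to -2.12 for the others. The platelet marker list was detected in every library (13 of 13 genes at 1 FPKM or more in control), with a summed level of 91011 to 114954 FPKM in the controls and 62397 to 93466 FPKM in pre-AML. Among markers of monocytes and macrophages, 16 of 17 were listed and 14 had a control mean under 1 FPKM, the exceptions being Lyz2 and Fcer1g. The 16 listed genes summed to 4665 to 5317 FPKM in the controls and 4870 to 5408 FPKM in the pre-AML libraries, and the 14 low ones to 0.315 to 1.28 FPKM in the controls, 5.20 and 6.20 FPKM in pre-AML 1 and pre-AML 2, and 448 FPKM in pre-AML 3. Of these, 4 were listed at 0 in all 3 controls. The part of these cells in the members' levels was not tested. In such bulk libraries, fewer platelets of one kind and less RNA per platelet cannot be told apart.

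The levels of the cargo transcripts in control platelets spanned from 1.53 FPKM for Sparc to 2347 FPKM for Clu. Clu, Srgn and Thbs1 formed the upper tier, at ranks 23, 37 and 58 of all listed genes by mean control level. F13a1, F5, Mmrn1, Vwf and Selp followed at 171, 147, 131, 80.0 and 30.6 FPKM, and Tgfb1 and Sparc closed the order at 7.88 and 1.53 FPKM. In control, the ranges of neighbours in this order overlapped for F13a1 and F5 and for F5 and Mmrn1, and for no other neighbours. In pre-AML platelets Srgn and Thbs1 also overlapped, as did Mmrn1 and Vwf. Together the 10 genes held 1.02% to 1.14% of all FPKM in control libraries and 0.9999% to 1.07% in pre-AML libraries.

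**Figure D1:**
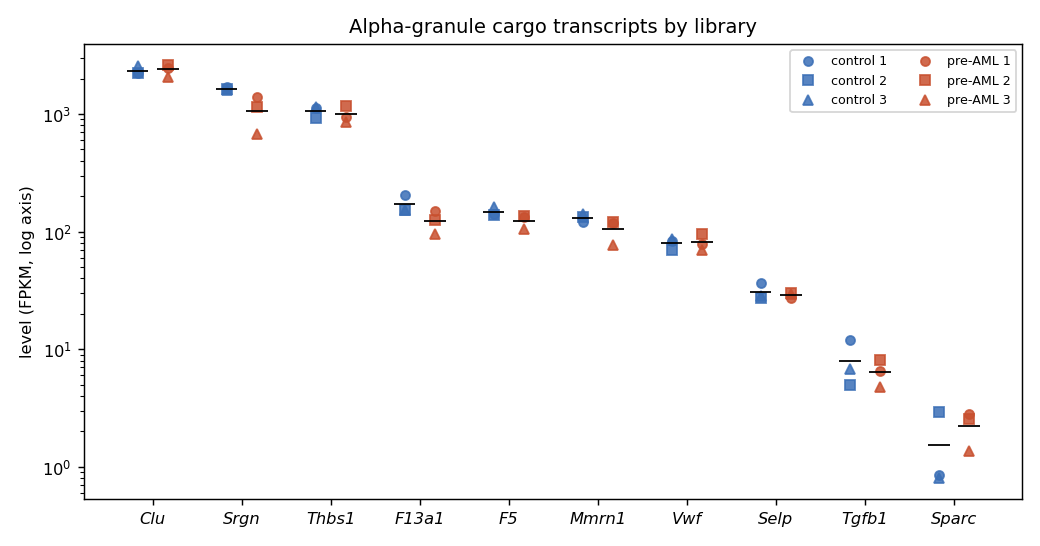
Level of each cargo gene in FPKM (log axis) in the 3 control (blue) and 3 pre-AML (red) libraries, with the group mean as a line; genes are ordered by control mean. The mean levels run from 2347 FPKM for Clu to 1.53 FPKM for Sparc, and the groups stand apart for Srgn, F13a1 and F5.

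The libraries were made to follow up mitochondrial changes in pre-AML platelets, and the same comparison was made here for the cargo transcripts. By electron cryo-tomography, the study found neither number nor average area of α granules significantly changed between pre-AML and transplanted controls. Against un-irradiated mice, it found fewer α granules of larger average area in pre-AML platelets. None of the 10 cargo genes passed the adjusted threshold of 0.05 (limma-trend on log2(FPKM + 1), Benjamini-Hochberg over the 4412 genes whose mean reached 1 FPKM, a filter that all 10 passed), where 1 gene (0.0227%) passed among all tested, namely Gzma, a protease of T and NK cells that was higher in pre-AML. Gzma had 0, 0.353 and 0 FPKM in the controls and 7.25, 4.61 and 8.90 FPKM in the pre-AML libraries. It thus met the filter only through the pre-AML libraries. With limma-voom on the recovered reads, 0 cargo genes passed as well. At an unadjusted p under 0.05, 2 of the 10 were lower in pre-AML (Srgn and F13a1), against 6.53% of all tested genes, and 0 were higher, against 2.56%. The 2 lower ones became 0 without any one of the 3 controls. They became 1 without pre-AML 2, without pre-AML 3, with length and GC trends removed or with no intensity trend. Without control 2, 1 member (Sparc) was higher. In 3 of the 10 all pre-AML libraries stood below all controls, against 12.8% of all tested genes. The log2 fold change was below 0 for 7 of the 10, against 58.5% of all tested genes, and its median was -0.15 over the members and -0.06 over all tested genes. This split depended on the scaling. After scaling to recovered reads 5 of the 10 were below 0, since Thbs1 and Selp turned to values above 0. The members' median was then -0.03 and that of all tested genes was 0.05. With length and GC trends removed, without control 2 or without pre-AML 2, 9 of the 10 were below 0.

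**Figure D2:**
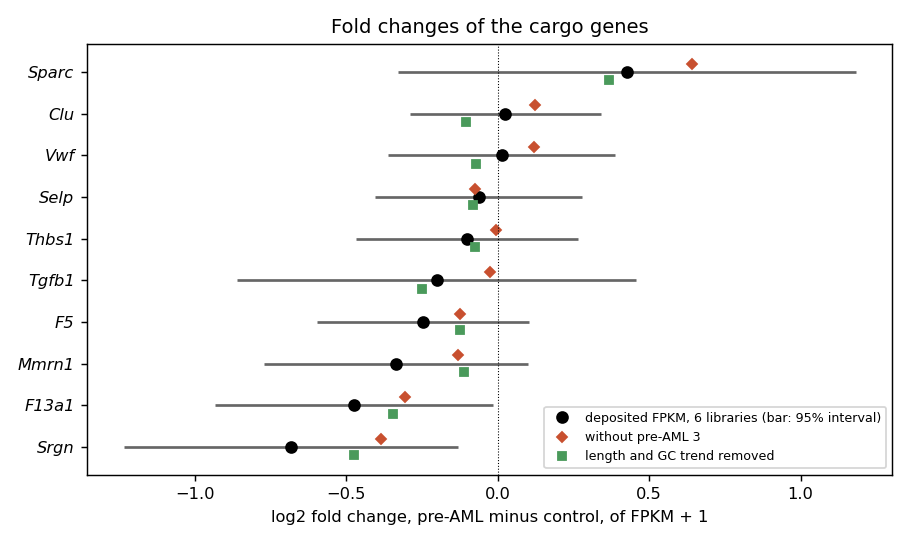
Log2 fold change of each cargo gene, pre-AML minus control, on log2(FPKM + 1), with its 95% interval from limma-trend (black), the value without pre-AML 3 (red) and the value with the trends of libraries with length and GC content removed (green). The intervals of Srgn and F13a1 lie below 0 and those of the other 8 genes hold 0; these intervals are not adjusted for the number of genes.

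Among the adhesive proteins, von Willebrand factor (Vwf, chr6:125546774-125686679 on GRCm38) tethers platelets to exposed collagen under flow. Its level was 83.2, 69.8 and 87.1 FPKM in the controls and 78.5, 95.6 and 69.2 FPKM in the pre-AML libraries. The pre-AML libraries held both the highest and the lowest value, so the groups overlapped. Between the groups its log2 fold change was 0.01 (standard error, SE, 0.16, 95% interval -0.36 to 0.39, limma-trend adjusted p = 0.980). Its sign turned with the libraries used, to -0.11 when pre-AML 2 was left out, while leaving out pre-AML 3 gave 0.12.

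Thrombospondin 1 (Thbs1, chr2:118111876-118127133) is released in large amounts and binds to CD36, CD47 and matrix proteins. It had 1119, 920 and 1150 FPKM in the controls and 952, 1167 and 861 FPKM in the pre-AML libraries. The order of the libraries resembled that of Vwf, with pre-AML 2 highest and pre-AML 3 lowest, and the groups overlapped. Its estimated log2 fold change was -0.10 (SE 0.16, 95% interval -0.47 to 0.26, limma-trend adjusted p = 0.804), and it was 0.03 with libraries scaled to their recovered reads. The ratio of Vwf to Thbs1 FPKM within a library, which does not depend on the scaling of libraries, was 0.0743, 0.0759 and 0.0757 in the controls and 0.0825, 0.0819 and 0.0804 in the pre-AML libraries, with means of 0.0753 ± 0.000849 and 0.0816 ± 0.00108 (SD, n = 3 libraries each). The groups did not overlap in this ratio (p = 0.1 by a two-sided exact permutation test, the smallest that 3 libraries against 3 can reach, and 0.2 adjusted over 4 ratios). These 4 ratios were chosen after the values had been seen, and the share of all gene pairs without overlap was not counted. Transcripts of Vwf and Thbs1 differ in GC content, at 56.5% and 49.9%. With trends of length and GC content removed, their log2 fold changes were nearly the same, at -0.070 and -0.076.

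Multimerin 1 (Mmrn1, chr6:60924976-60989378) is a very large protein that binds factor V within the granule. Its level was 120, 132 and 141 FPKM in the controls and 118, 121 and 77.6 FPKM in the pre-AML libraries. Pre-AML 1 and pre-AML 2 lay at the lower edge of the controls and pre-AML 3 lay far below. The log2 fold change of -0.34 (SE 0.19, limma-trend adjusted p = 0.534) became -0.13 without pre-AML 3.

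Sparc, or osteonectin (chr11:55394500-55423183), is a matrix protein that binds collagen. It was the least abundant member, at 0.855, 2.95 and 0.799 FPKM in the controls and 2.80, 2.57 and 1.36 FPKM in the pre-AML libraries. Control 2 stood with the pre-AML libraries, above all of them, and the groups overlapped. These values rest on 38, 157 and 36 reads in control and 141, 147 and 120 reads in pre-AML libraries. Their log2 fold change was 0.43 (SE 0.33, 95% interval -0.33 to 1.18, limma-trend adjusted p = 0.607). Single libraries weighed on this value, which became 0.80 when control 2 was left out, 0.25 and 0.23 when control 1 or control 3 was, and 0.64 when pre-AML 3 was. With limma-voom it was 0.81. Endothelial cells also make Sparc. Of 11 endothelial markers, 11 were listed, and none was at 0 in all libraries. Their summed level was 243 to 281 FPKM in the controls and 235 to 286 FPKM in pre-AML. Most of this sum was Esam, at 175 to 224 FPKM over all libraries. Of the 11 markers, 4 (Tie1, Plvap, Cldn5 and Esam) were at 1 FPKM or more in control. The 7 others summed to 2.25, 3.80 and 1.36 FPKM in the controls and 3.60, 2.94 and 1.78 FPKM in the pre-AML libraries. Control 2 was thus highest and control 3 lowest for both Sparc and this sum. The part of endothelial RNA in the level of Sparc was not tested. The 10 listed of 11 mesothelial and stromal markers summed to no more than 3.28 FPKM in any library.

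P-selectin (Selp, chr1:164115264-164150026) lies in the granule membrane and moves to the surface on activation, where leukocytes bind to it. Its level was 36.2, 27.5 and 28.2 FPKM in the controls and 27.4, 30.3 and 29.6 FPKM in the pre-AML libraries. Apart from control 1, all libraries lay within a narrow range. Between the groups its log2 fold change was -0.06 (SE 0.15, 95% interval -0.40 to 0.28, limma-trend adjusted p = 0.873), without control 1 it was 0.06, and with equal summed FPKM it was 0.11. F5 follows Selp on the same strand of chromosome 1, with 1811 bases between these genes. Noncoding genes on the opposite strand overlap exons of Selp, F5, Thbs1 and F13a1 over 74 to 438 bases. The library kit does not mark the strand, so reads from these stretches cannot be told apart.

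Of the clotting proteins, factor V (F5, chr1:164151838-164220277) is the cofactor of factor Xa in the formation of thrombin. It had 142, 137 and 162 FPKM in the controls and 133, 135 and 104 FPKM in the pre-AML libraries. All pre-AML libraries stood below all controls, by a narrow margin for pre-AML 1 and pre-AML 2. Its estimated log2 fold change was -0.25 (SE 0.15, 95% interval -0.60 to 0.10, limma-trend adjusted p = 0.553), and -0.12 without pre-AML 3.

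The A subunit of factor XIII (F13a1, chr13:36867178-37050244) crosslinks fibrin. Its level was 207, 152 and 154 FPKM in the controls and 150, 125 and 95.9 FPKM in the pre-AML libraries. Control 1 was high, and pre-AML 1 lay just under control 2 and control 3. Means and SDs of 3 libraries were 171 ± 31.3 FPKM and 123 ± 26.9 FPKM. This amounted to a log2 fold change of -0.47 (SE 0.20, 95% interval -0.93 to -0.02, limma-trend adjusted p = 0.522), and over the 18 alternative settings it was between -0.62 and -0.30. Without pre-AML 3 it was -0.30. Macrophages also make F13a1, and its deposited level was lowest in pre-AML 3, the library with the highest sum of low macrophage markers. Scaled to recovered reads, the level of F13a1 was 126 FPKM in both pre-AML 2 and pre-AML 3. The part of macrophages in its level was not tested. The ratio of F13a1 to F5 within a library averaged 1.17 ± 0.263 in the controls and 0.988 ± 0.117 in the pre-AML libraries (SD, n = 3 each, p = 0.3 by the exact permutation test and 0.4 adjusted over the 4 ratios). That of Mmrn1 to F5, which encode binding partners, averaged 0.894 ± 0.0624 and 0.841 ± 0.0839 (SD, n = 3 each, p = 0.6 by the exact permutation test before and after adjustment).

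On deposited FPKM the largest fold change among the members was that of serglycin, though that of Sparc was larger in size in 6 of the alternatives, limma-voom among them. Serglycin (Srgn, chr10:62493833-62527451) is the proteoglycan whose charged chains hold chemokines such as Pf4 in the granule. Srgn had 1705, 1632 and 1594 FPKM in the controls and 1385, 1143 and 678 FPKM in the pre-AML libraries. The controls lay close together and all pre-AML libraries lay below them, pre-AML 3 furthest. Controls averaged 1644 ± 56.3 FPKM and pre-AML libraries 1069 ± 359 FPKM (SD, n = 3 each). Between the groups its log2 fold change was -0.68 (SE 0.24, 95% interval -1.23 to -0.13, limma-trend adjusted p = 0.522). It was -0.38 without pre-AML 3, and its adjusted p was between 0.159 and 0.747 over the alternatives, so the difference did not pass the threshold in any of them. It rests on 43952, 50439 and 41661 reads in the controls and 40460, 37872 and 34722 reads in the pre-AML libraries, with the fewest in pre-AML 3, the deepest library. Leukocytes also make serglycin, and its level was lowest in the same library, pre-AML 3. Their part in its level was not tested.

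Clusterin (Clu, chr14:65968483-65981547), a secreted chaperone, was the most abundant member. It had 2240, 2250 and 2551 FPKM in the controls and 2472, 2631 and 2083 FPKM in the pre-AML libraries. Pre-AML 3 was the lowest of all 6 and pre-AML 2 the highest, so the groups overlapped. Its estimated log2 fold change was 0.03 (SE 0.14, 95% interval -0.29 to 0.34, limma-trend adjusted p = 0.952), and -0.10 with length and GC trends removed.

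Since pre-AML 3 was scaled differently, its low values were also examined without that scaling. In deposited FPKM it held the lowest value of 8 of the 10 members. With all libraries scaled to their recovered reads, which moved the median fold change of all genes by 0.11 on the log2 scale, it held the lowest value of 3 (Mmrn1, F13a1 and Srgn). All pre-AML libraries then still stood below all controls for F5, F13a1 and Srgn, against 9.77% of all tested genes. Srgn was at 1677, 1655 and 1584 FPKM in the controls and 1361, 1157 and 889 FPKM in the pre-AML libraries on this scale. With libraries centred on their platelet markers, Srgn remained below all controls (8.41% of all tested genes did), F5 and F13a1 overlapped, and Clu stood above all controls (8.98% of all tested genes did).

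Shares of the summed FPKM of the 10 genes do not depend on the scaling. Srgn made up 30.1%, 30.6% and 27.1% of this sum in control and 26.0%, 20.9% and 16.9% in pre-AML libraries. Clu made up 39.5%, 42.2% and 43.4% in control and 46.4%, 48.2% and 52.0% in pre-AML libraries. The groups thus did not overlap for either gene, in opposite directions, while those of the other 8 genes overlapped. Of all tested genes divided by the same sum, 16.2% stood above all controls and 5.89% below. Clu and Srgn differ in GC content, at 55.6% and 42.8%. With length and GC trends removed, their log2 fold changes had the same direction, at -0.10 and -0.47. The ratio of Srgn to Clu was 0.761, 0.726 and 0.625 in the controls and 0.560, 0.434 and 0.325 in the pre-AML libraries, without overlap (p = 0.1 by the exact permutation test and 0.2 adjusted over the 4 ratios). A lower Srgn and a higher Clu share are not independent, since shares add to the whole.

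**Figure D3:**
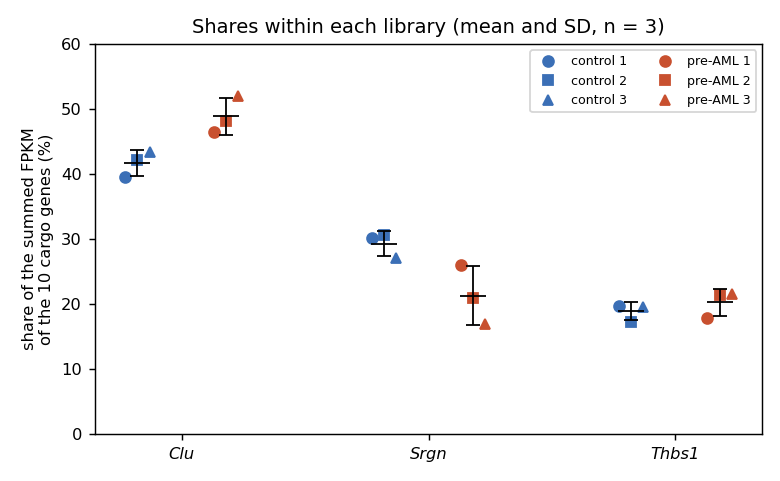
Share of Clu, Srgn and Thbs1 in the summed FPKM of the 10 cargo genes within each library, in percent, with mean and SD of 3 libraries per group. Pre-AML libraries lie at 46.4% to 52.0% for Clu and 16.9% to 26.0% for Srgn, outside the control ranges, and overlap with control for Thbs1.

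The last member, transforming growth factor β1 (Tgfb1, chr7:25687002-25705077), is stored in a latent form. It had 11.9, 4.93 and 6.82 FPKM in the controls and 6.54, 8.08 and 4.74 FPKM in the pre-AML libraries. Control 1 stood well above the others and the groups overlapped. This amounted to a log2 fold change of -0.20 (SE 0.29, 95% interval -0.86 to 0.46, limma-trend adjusted p = 0.784), and 0.10 without control 1.

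The members also differed in base composition. Deviations of genes from their mean were related to GC content in all libraries but pre-AML 1, where this relation was weak. Computed over genes, which do not stand for replicates, the Spearman correlation was -0.40 to -0.30 in control libraries and -0.05, 0.31 and 0.49 in the pre-AML libraries. Srgn, Mmrn1, F13a1 and F5 had transcripts of 42.8%, 42.3%, 45.9% and 46.2% GC, below the median of 49.8% of tested genes, and the 6 other members lay above it. These 4 had the lowest fold changes of the 10, from -0.68 to -0.25, while the 6 others were between -0.20 and 0.43. Of all tested genes below the median GC content, 78.2% had a fold change below 0, against 38.7% of those above. After removal of these trends, fitted with gene length as well, log2 fold changes were -0.47 for Srgn, -0.35 for F13a1, -0.11 for Mmrn1 and -0.12 for F5. GC content and group cannot be told apart in these libraries beyond this adjustment.

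**Figure D4:**
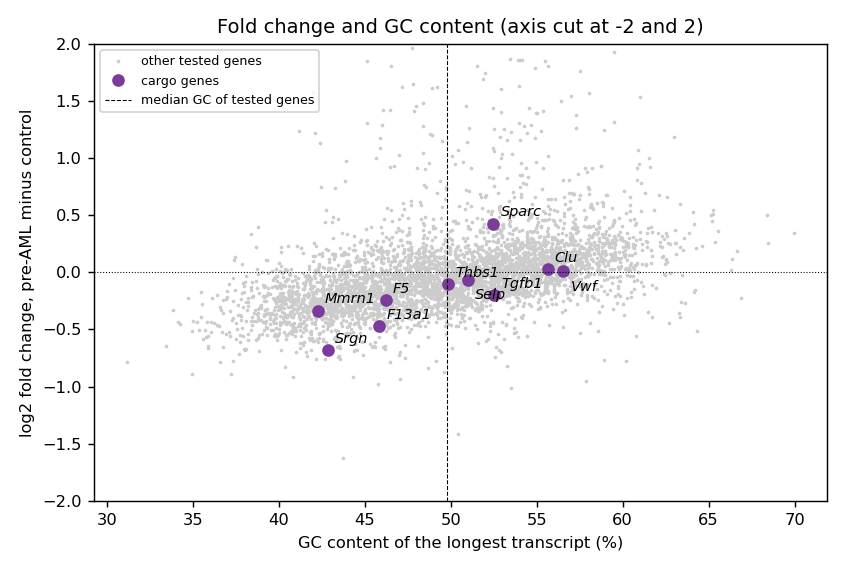
Log2 fold change (pre-AML minus control) of each tested gene against the GC content of its longest transcript in percent; cargo genes are named, grey points are other genes and the dashed line is the median GC content. The 4 cargo genes left of the median lie between -0.68 and -0.25; 13 other genes lie beyond the vertical axis.

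Further cargo and the machinery around it were described with 9 lists. No gene of these lists passed the adjusted threshold (limma-trend). Genes with a control mean under 1 FPKM entered the test only through the pre-AML libraries, so medians are given over the other tested genes. Of other adhesive proteins, 5 of 14 were tested, and 3 of these, with a median log2 fold change of 0.07, reached 1 FPKM in control. Ecm1, a secreted matrix protein, had 442, 550 and 623 FPKM in the controls and 698, 706 and 716 FPKM in the pre-AML libraries. All pre-AML libraries lay above all controls (6.14% of all tested genes did), with a log2 fold change of 0.41 (SE 0.15, limma-trend adjusted p = 0.522). Ecm1 was the 1 gene of its list with an unadjusted p under 0.05, where 2.56% of all tested genes were higher. Lgals3bp had a fold change of 0.07 and Emilin1 of -0.08 on the log2 scale. The 2 left out were both high in pre-AML 3 alone. Fibronectin (Fn1) had 0.244 FPKM or less in all other libraries and 49.8 FPKM in pre-AML 3. Emilin2, named after its values were seen, had 0.231 FPKM or less in the others and 23.2 FPKM in pre-AML 3. Low macrophage markers summed to 448 FPKM in pre-AML 3, and the part of other cells in these levels was not tested. The fibrinogen chain Fgb, named after its values were seen, was at 0.0671 FPKM in control 1 and listed at 0 in the other libraries.

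Of other clotting and fibrinolysis proteins, 6 of 25 were tested and 2 were lower at an unadjusted p under 0.05, against 6.53% of all tested genes. Protein S (Pros1), a cofactor of activated protein C, had 211, 168 and 170 FPKM in the controls and 141, 139 and 87.8 FPKM in the pre-AML libraries. The protease inhibitor Serpine2 had 69.0, 59.4 and 59.7 FPKM in the controls and 49.3, 51.3 and 38.0 FPKM in the pre-AML libraries. Both lay below all controls (12.8% of all tested genes did), with log2 fold changes of -0.60 and -0.44 (SE 0.21 and 0.16, limma-trend adjusted p = 0.522 each). F10 and Aplp2 were at 0.11 and 0.21. Over the 5 genes that reached 1 FPKM in control the median was 0.11.

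Of other growth factors and protease inhibitors, 5 of 26 were tested, with a median of -0.07 over the 4 that reached 1 FPKM in control. Angiopoietin 1 (Angpt1), a ligand of the endothelial receptor Tie2, had 27.0, 36.2 and 34.1 FPKM in the controls and 26.3, 24.3 and 18.2 FPKM in the pre-AML libraries. Its log2 fold change was -0.49 (SE 0.18, limma-trend adjusted p = 0.522). It was the 1 gene of this list with an unadjusted p under 0.05, where 6.53% of all tested genes were lower. All pre-AML libraries lay below all controls (12.8% of all tested genes did), by a narrow margin for pre-AML 1. Pdgfa was at 0.12, Adam17 at 0.09 and Timp3 at -0.23. The chemokines Pf4 and Ppbp, the most abundant cargo, had log2 fold changes of -0.36 and -0.39, with Ccl5 at 0.08 and Cxcl5 at -0.44, and the median of 5 tested of 6 was -0.36.

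Among 16 tested of 17 granule membrane proteins, 0 had an unadjusted p under 0.05 and 12 had a fold change below 0, with a median of -0.10. Cd9, Gp9, Itga2b and Treml1, its most abundant members, were at -0.02, 0.16, 0.12 and -0.07. For granule biogenesis and sorting, 10 of 19 genes were tested, with a median of -0.02 and 0 at an unadjusted p under 0.05. The megakaryocyte transcription factors Nfe2, Gata1, Gfi1b and Fli1 were at 0.03, -0.04, 0.07 and -0.18. Nbeal2 and Vps33b, which are needed for α granules to form and are named here after their values were seen, lay below the filter, at 0.312 to 0.968 FPKM and 0.145 to 0.585 FPKM over the 6 libraries.

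Chondroitin sulfate chains are built on serglycin by a set of enzymes, of which 5 of 19 were tested. Their median log2 fold change was 0.04 and 0 had an unadjusted p under 0.05. Chst12, a sulfotransferase, had 137, 145 and 169 FPKM in the controls and 167, 175 and 158 FPKM in the pre-AML libraries, with a log2 fold change of 0.15 (limma-trend adjusted p = 0.642). Csgalnact1, which starts the chain, Chst11 and the sulfate donor transporter Slc35b2 were at -0.19, -0.11 and 0.04.

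For the latency, activation and signaling of TGF-β, 7 of 22 genes were tested, with a median of 0.03 over the 6 that reached 1 FPKM in control. Ltbp1, which binds latent TGF-β, was at 54.4 FPKM over all libraries with a log2 fold change of -0.02. Lrrc32, which displays latent TGF-β on platelets, was at -0.22, Nrros at 0.25 and Ski at 0.09. Eng, which passed the filter only through the pre-AML libraries, had 0.842, 1.90 and 0.228 FPKM in the controls and 2.93, 1.74 and 2.64 FPKM in the pre-AML libraries, and its groups overlapped. Of receptors and partners of the cargo, 12 of 17 were tested, with a median of -0.16 over the 11 that reached 1 FPKM in control. Of the von Willebrand factor receptor subunits, Gp9 and Gp5 were at 0.16 and 0.11 and Gp1ba and Gp1bb, the latter pair named after their values were seen, at -0.16 and -0.14, and the integrin subunits Itga2b and Itgb3 at 0.12 and -0.19. Selplg, the ligand of P-selectin on leukocytes, passed the filter only through pre-AML 3. It had 0.288 FPKM or less in control, 1.23 and 1.18 FPKM in pre-AML 1 and pre-AML 2 and 30.2 FPKM in pre-AML 3. Markers of macrophages and of B cells were also highest in pre-AML 3, and the part of these cells in the level of Selplg was not tested.

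**Figure D5:**
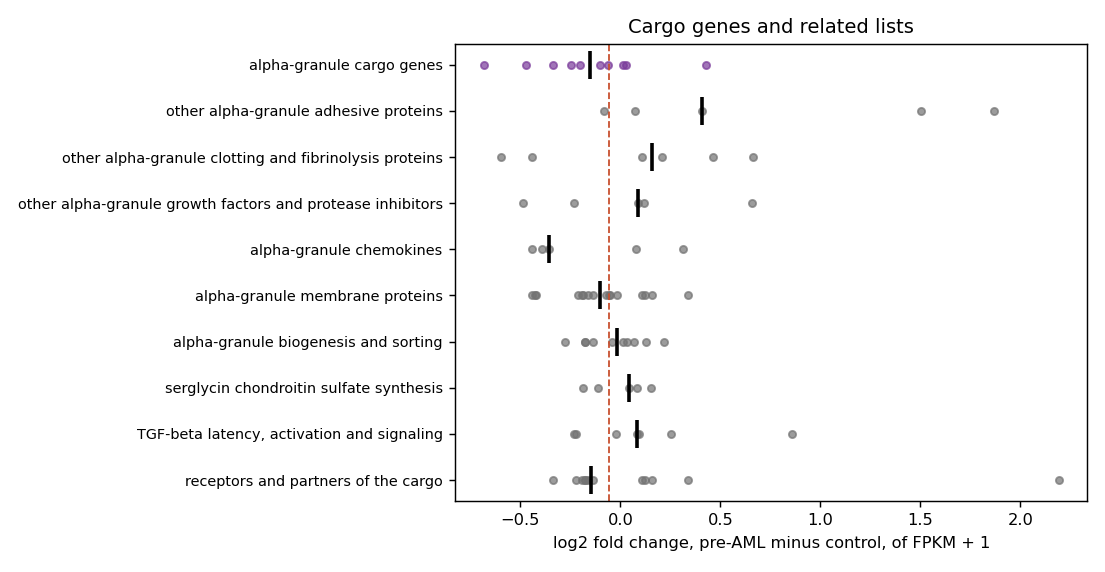
Log2 fold change (pre-AML minus control, on FPKM + 1) of each tested gene in the cargo set (purple) and in 9 related lists (grey), with the median of all tested genes of a list as a black bar and the median of all tested genes, -0.06, as a dashed line. The cargo genes lie between -0.68 and 0.43 around a median of -0.15; the 3 points furthest right are Emilin2, Fn1 and Selplg, which were highest in pre-AML 3.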

How the data were processed

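The authors mapped reads to mm10 with STAR and used DESeq2 for differential expression; the counting program and annotation are not given in the sources used here. The authors deposited FPKM values for 14975 genes in 6 libraries, with Entrez identifiers and symbols. Values were matched to libraries by column name. Lengths (union of exons) and GC content came from GENCODE M21 on GRCm38 and were found for 14911 genes. With these lengths, 81.4% of values above 0 were whole multiples of 1 read (tolerance 0.01), and for 8 of the 10 members in all libraries. Reads of Mmrn1 and Tgfb1 are estimates. For 3 reads on 2 kb of exons, FPKM is 0.0643 in pre-AML 3 and 0.128 in control 1.

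Groups were compared on log2(FPKM + 1), which understates differences of low genes, with limma-trend (limma 3.58.1, R 4.3.3), for genes whose mean reached 1 FPKM, no covariates and Benjamini-Hochberg adjustment. The fit was tested on simulated data. Ratios used two-sided exact permutation tests (scipy 1.17.1, Python 3.11.15). The members and lists were chosen with earlier results of these data known. Named were all members, up to 4 tested genes of highest mean level per list and the 3 genes closest in pattern to each of the 3 most abundant members; other genes named have an unadjusted p under 0.05 or were chosen after their values were seen. Lists were described without a set test. Alternatives were a pseudocount of 0.1, no filter, a mean of 5 FPKM, equal summed FPKM, quantile normalization, removal of length and GC trends by loess, array weights, no intensity trend, the replicate number as a block and leaving out each library, and, chosen after seeing the data, scaling to recovered reads, centring on platelet markers and limma-voom.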

Additional observations from a re-analysis of the deposited data

How the results depend on the processing

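No cargo gene passed the threshold under any of the 18 alternatives, and Srgn, F13a1, F5 and Mmrn1 stayed below 0 and Sparc above 0 in every setting that tested them. The number of all genes past the threshold, 1 in the main analysis, was 0 with no filter, with a mean of at least 5 FPKM, with equal summed FPKM, scaled to recovered reads, centred on platelet markers and with limma-voom, 2 with array weights and 0 to 2 when one library was left out (0 without control 1 or control 3, 2 without pre-AML 3). The members' median moved to 0.044 with array weights, whose estimation stopped before it converged; leaving out one library it was between -0.27 and -0.034. The median of all tested genes moved by 0.15 with equal summed FPKM, 0.11 with recovered reads and 0.13 with limma-voom. Directions turned as follows, and the cause was not tested. With equal summed FPKM, Thbs1 was at 0.069 and Selp at 0.11, with quantile normalization at 0.056 and 0.051, with recovered reads at 0.030 and 0.066, and with limma-voom at 0.034 and 0.078. With length and GC trends removed, Vwf was at -0.070 and Clu at -0.10. With array weights, Thbs1 was at 0.092 and Tgfb1 at 0.11, and centred on platelet markers Selp was at 0.027. Leaving out one library turned Selp, Clu and Tgfb1 (0.060, -0.0068 and 0.10 without control 1), Vwf and Clu (-0.081 and -0.0038 without control 2, -0.11 and -0.046 without pre-AML 2) and Clu (-0.00070 without pre-AML 1). The ranges over these fits were -0.11 to 0.12 for Vwf, -0.13 to 0.060 for Selp, -0.046 to 0.12 for Clu, -0.45 to 0.10 for Tgfb1 and 0.23 to 0.80 for Sparc. With equal summed FPKM the members' median was 0.0075. Replicate numbers were not shown to pair libraries: deviations of same-numbered libraries correlated at -0.04, -0.12 and -0.17. With the replicate block, 1 gene and 0 members were called. Sparc rests on as few as 36 reads, a counting error of 16.7%, and was not tested with a mean of at least 5 FPKM.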

Other observations

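Genes with the most similar profile over the 6 libraries were listed for the 3 most abundant members, as a description. For Clu they were Mmp19, Necap2 and Csrp1 (Pearson r of log2(FPKM + 1) 0.98, 0.97 and 0.97, n = 6 libraries). For Srgn they were Chaserr, Stx7 and Serpinb9 (0.999, 0.998 and 0.998), and 553 tested genes had a correlation above 0.9 with Srgn, against 79 for Clu and 62 for Thbs1. For Thbs1 they were Dusp14, Flna and Galnt2 (0.99, 0.99 and 0.98). The libraries share depth, scaling and base composition trends, which enter these values.

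Markers of other blood cells were counted beside the cargo. The 4 listed of 7 mast cell markers summed to 1.69 to 2.74 FPKM in control and 2.20 to 3.64 FPKM in pre-AML libraries, and neutrophil markers (10 of 10 listed) to 3.16 to 3.66 and 1.46 to 4.998 FPKM. B cell markers (8 of 10 listed) summed to 1.82 to 1.92 FPKM in control and 1.77, 6.11 and 67.8 FPKM in the pre-AML libraries. T and NK cell markers (10 of 12 listed) summed to 19.1 to 28.7 and 33.4 to 36.5 FPKM, most of it Nkg7, and without Nkg7 to 0.139 to 0.437 FPKM in the controls and 5.48 to 13.9 FPKM in the pre-AML libraries. Erythroid markers (8 of 10 listed) summed to 2365 to 2665 and 2386 to 2999 FPKM. Their part in the cargo levels was not tested.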
